A study of Mus musculus with 24 samples.

Results

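De novo fatty acid synthesis, the cytosolic making of fatty acids from acetyl-CoA, was described through 10 genes in 3T3-L1 cells, a mouse line of fat cell precursors that can be induced to become fat cells by hormones. The genes were chosen by name as the enzymes of the pathway and 1 protein tied to it: Acly, Acaca, Acacb, Fasn, Scd1, Scd2, Elovl6, Me1, Acss2 and Thrsp. All 10 were found among the 24346 genes of the count files, and all 10 passed the filter on low counts that left 13356 genes for testing. The names were chosen for their place in the pathway, with earlier results of these data known.

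By its title the study concerned the control of beige adipogenesis by LSD1, an enzyme that removes methyl groups from histones and is the product of Kdm1a. The 12 RNA-seq libraries formed 4 groups of 3: cells with the genotype label control and cells with the genotype label of LSD1 overexpression, each sampled as confluent cells not yet induced (day 0) and again at day 7. All groups were 3T3-L1 cells of passages 13 to 18. Day 7 cells had received insulin at 10 µg/ml, dexamethasone at 1 µM, rosiglitazone at 10 µM and isobutylmethylxanthine at 500 µM, and the medium was changed at day 3. Rosiglitazone is an agonist of PPARγ, so every day 7 value was measured after a drug that acts on the fat cell program. LSD1 ChIP-seq of each of the 4 conditions and Nrf1 ChIP-seq of each day gave 6 peak lists, with 1 sample each. The labels name no promoter or construct for the overexpression and do not say whether the replicates are separately derived lines, so p-values measure only the spread between these samples, and an effect of the label and any further difference between these lines cannot be told apart.

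Cytosolic acetyl-CoA comes from citrate through ATP citrate lyase (Acly) or from acetate through acetyl-CoA synthetase (Acss2). Acetyl-CoA carboxylase (Acaca and Acacb) turns it into malonyl-CoA, which fatty acid synthase (Fasn) joins into palmitate with NADPH supplied in part by malic enzyme (Me1). Elovl6 lengthens palmitate, stearoyl-CoA desaturases (Scd1 and Scd2) add a double bond, and Thrsp, also called Spot 14, is a small protein induced together with lipogenic enzymes. In fat tissue the pathway is known to respond to insulin through SREBP-1c, ChREBP and LXR, the products of Srebf1, Mlxipl and Nr1h3.

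Library totals were 27512273 to 37565527 counts over all transcripts, and 19953122 to 26266765 with 1 transcript kept per gene. Counting error was small for every member except Thrsp before induction. Kdm1a, the gene meant to be overexpressed, did not pass as higher in the labelled libraries at day 0 (log2 difference 0.23, SE 0.096, adjusted p = 0.0969) and was lower in them at day 7 (−0.34, SE 0.097, adjusted p = 0.00751). Without the day 0 library described next, the day 0 value was 0.29 (adjusted p = 0.0131). Libraries of that genotype label are called labelled libraries throughout. Among the labelled libraries at day 0, replicate 1 stood apart: its log2 CPM correlated across genes at 0.955 and 0.957 with the other 2 libraries, which correlated at 0.993 with each other, while the other 3 groups had correlations of 0.988 to 0.992. Results that rest on this library are given with and without it. The 8 adipocyte markers summed to 22.2 to 44.9 CPM (counts scaled to library size) per library at day 0, 5229 to 7086 in control and 20270 to 23700 in labelled libraries at day 7, and the leptin gene Lep was at 0 in every group but control at day 7. The 8 preadipocyte and fibroblast markers summed to 33290 to 35910 CPM in control and 13820 to 18660 in labelled libraries at day 0, and to 8148 to 8508 and 1237 to 1274 at day 7. These sums weigh abundant genes most: of the 7 adipocyte markers tested between labels at day 7, 5 were higher, Retn was lower (log2 −1.45, SE 0.367, adjusted p = 0.00388) and Adipoq did not pass (0.54, SE 0.278, adjusted p = 0.107). By DESeq2, 4 adipocyte markers were higher there and 0 lower. Of the 8 preadipocyte and fibroblast markers, 7 were lower there and Tagln did not pass (−0.60, SE 0.261, adjusted p = 0.059). Among all genes tested, 30.2% were higher and 33.4% lower in that comparison (edgeR). The part of either marker set in the differences below was not tested, and in bulk samples more fat cells and more RNA per fat cell cannot be told apart.

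Levels below are RPKM (counts scaled to library size and to kilobases of transcript), which lets genes of different length be compared. In control cells before induction Scd2 was the most abundant of the 10 at 128.0 ± 8.87 RPKM (SD, n = 3), followed by Acly at 87.0 ± 4.12, Fasn at 54.8 ± 2.88 and Scd1 at 46.1 ± 2.70. Acacb, at 1.36 ± 0.040, and Thrsp, at 0.216 ± 0.281, were the lowest, and no 2 neighbours in this order overlapped between libraries. At day 7 in labelled cells the order was Scd1 at 811.3 ± 29.0, Scd2 at 495 ± 21.4, Thrsp at 219 ± 18.0 and Me1 at 69.4 ± 0.366, and Elovl6 was the lowest at 2.05 ± 0.284. In that order Acly overlapped with Fasn, Fasn with Acss2, and Acacb with Acaca. In control cells at day 7 Scd2 overlapped with Scd1, Acly with Fasn, and Fasn with Thrsp. The 10 genes held 0.200% ± 0.0089 of all gene counts in control at day 0 and 0.281% ± 0.014 at day 7, and 0.178% ± 0.031 and 0.713% ± 0.013 in labelled libraries (SD, n = 3 each).

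**Figure D1:**
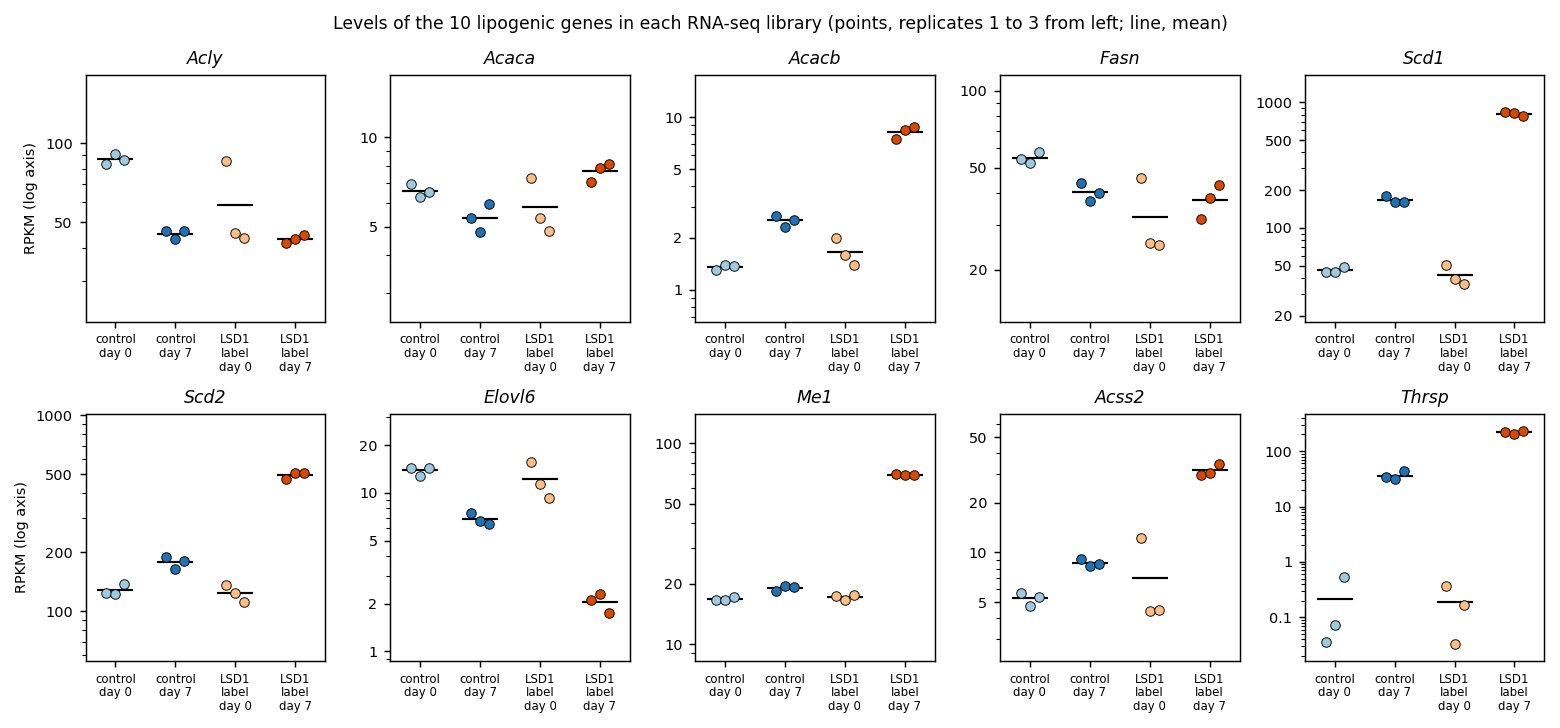
RPKM of each gene on a log axis in the 12 RNA-seq libraries, with replicates 1 to 3 from left to right in each group and a line at the group mean. At day 7 the 3 labelled libraries lie above the 3 control libraries for Acaca, Acacb, Scd1, Scd2, Me1, Acss2 and Thrsp and below them for Elovl6, and they overlap for Acly and Fasn.

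By day 7 in control cells the desaturases Scd1 and Scd2, the carboxylase Acacb and Thrsp rose, while Acly and the elongase Elovl6 fell. That made 4 of 10 members higher and 2 lower, where 23.7% and 24.6% of all genes tested were higher and lower, 48.3% in all (edgeR quasi-likelihood test, Benjamini-Hochberg adjusted p under 0.05). The share of members lower in control is thus near that of all genes. The members' median log2 difference was 0.33, against −0.01 for all genes. In labelled cells 7 of 10 rose and 1, Elovl6, fell, with a median of 2.01 against −0.07, where 32.6% and 37.2% of all genes were higher and lower, 69.8% in all. The groups of libraries did not overlap for all 10 members in control (6 above, 4 below) and for 7 in labelled cells (6 above, 1 below). Of all genes, 33.8% and 35.4% had such separation above and below in control, and 33.0% and 36.1% in labelled libraries. Without labelled day 0 replicate 1, the counts of members higher and lower were 6 and 4 in control, where 31.0% and 32.1% of all genes were, and 8 and 1 in labelled cells, where 36.5% and 39.6% were.

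The comparison at day 7 between labels had the same 7 members higher as the labelled day comparison, with 1 lower and 2, Acly and Fasn, not passed. Of all genes tested 30.2% were higher and 33.4% lower in labelled libraries, 63.6% in all, and the members' median log2 difference was 1.59 against −0.05. The groups did not overlap for 7 members above and 1 below, where 35.8% and 39.1% of all genes were so separated. Without labelled day 0 replicate 1 the counts were again 7 and 1, where 35.4% and 38.3% of all genes were called. These comparisons share libraries, so their values are given side by side and not as support for each other. The interaction, which is the day 7 against day 0 difference in labelled cells minus that in control cells, was past the threshold for 8 members, 7 higher and 1 lower, where 23.9% and 28.1% of all genes were called in these directions, 51.9% in all.

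**Figure D2:**
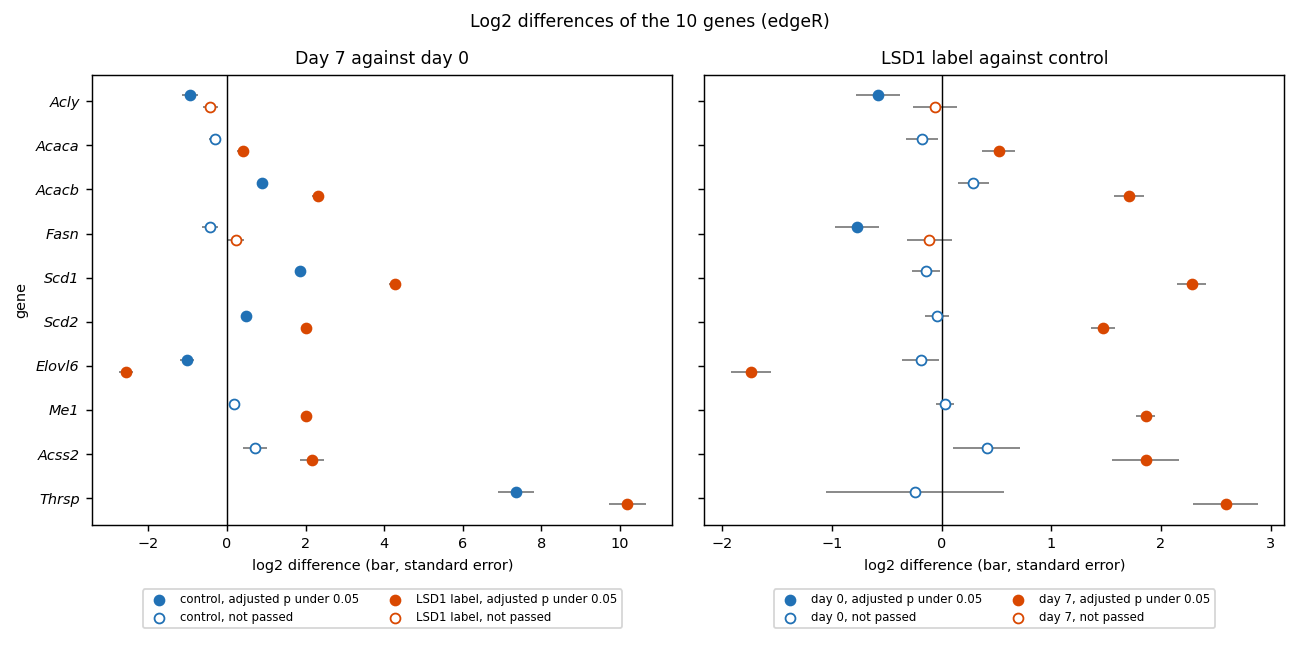
Log2 differences of the 10 genes with their standard errors, day 7 against day 0 (left, control and labelled cells) and labelled against control libraries (right, day 0 and day 7). Filled points passed the test. Thrsp had the largest rise by day in both labels, at 7.36 and 10.19, and Elovl6 stood to the left of 0 in all 4 comparisons.

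The 2 sources of cytosolic acetyl-CoA differed. Acly, which cleaves citrate, stood at 83.1, 91.3 and 86.5 RPKM in the control libraries at day 0 and at 46.4, 43.2 and 46.2 at day 7. Every control library was lower at day 7 than any at day 0, and the log2 difference was −0.94 (SE 0.202, adjusted p = 0.002). In labelled cells the day 0 libraries held 85.3, 45.5 and 43.7 RPKM and the day 7 libraries 41.9, 43.2 and 44.8. Replicate 1 of labelled day 0 thus lay at the control level, and the others lay at the level of day 7. The day difference in labelled cells was −0.42 (SE 0.201, adjusted p = 0.0749) with that library and −0.04 (adjusted p = 0.672) without it, and the call of a fall appeared when replicate 2 or 3 of that group was left out (−0.57 and −0.59, adjusted p = 0.0221 and 0.0166). At day 7 the label made no difference past the test, with a log2 value of −0.06 (SE 0.200, adjusted p = 0.797), or 0.20 with the trend on transcript length removed.

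Acss2, which activates acetate in the cytosol and nucleus, was at 5.72, 4.78 and 5.35 RPKM in control at day 0 and at 9.20, 8.28 and 8.51 at day 7. The labelled libraries had 12.2, 4.41 and 4.47 RPKM at day 0 and 29.5, 30.3 and 34.5 at day 7. Here too replicate 1 of labelled day 0 was the one high library before induction. The rise in labelled cells was 2.16 on the log2 scale (SE 0.312, adjusted p = 4.07e-05), and at day 7 the level was 3.63-fold that of control (log2 1.86, SE 0.309, adjusted p = 0.000178). In control cells the difference of 0.71 (SE 0.308) did not pass (adjusted p = 0.073), although the libraries did not overlap, and it passed without replicate 1, 2 or 3 of labelled day 0 (0.71 in each, adjusted p = 5.18e-06, 0.0395 and 0.0455). The interaction was 1.45 (SE 0.431, adjusted p = 0.0131), and 2.11 without replicate 1 of labelled day 0. At day 7 the acetate enzyme was thus higher in labelled cells, and the citrate enzyme did not differ past the test.

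The 2 acetyl-CoA carboxylases moved by different amounts. Acaca, the cytosolic form that serves synthesis, held 6.93, 6.27 and 6.56 RPKM in control at day 0 and 5.33, 4.79 and 5.96 at day 7. The difference of −0.30 (SE 0.147) did not pass (adjusted p = 0.113). It passed without replicate 1 of labelled day 0 (adjusted p = 0.0111) and with only the groups compared (−0.26, adjusted p = 0.0231). The labelled libraries held 7.29, 5.33 and 4.84 RPKM at day 0 and 7.06, 7.90 and 8.12 at day 7. At day 7 each labelled library was above each control library, by 1.44-fold (log2 0.52, SE 0.148, adjusted p = 0.0077). The rise by day in labelled cells was small, at 0.40 (SE 0.147, adjusted p = 0.0261), and it did not pass without labelled day 0 replicate 2 or 3 (0.34 and 0.29, adjusted p = 0.0821 and 0.11) or labelled day 7 replicate 2 or 3 (0.38 and 0.37, adjusted p = 0.072 in both). It was 0.60 (adjusted p = 4.9e-05) without labelled day 0 replicate 1 and 0.76 with the trend on transcript length removed.

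Acacb, whose product sits at the mitochondrial outer membrane and makes malonyl-CoA that restrains fatty acid import into mitochondria, was at 1.31, 1.39 and 1.37 RPKM in control at day 0 and at 2.69, 2.33 and 2.55 at day 7. In labelled cells it went from 2.00, 1.59 and 1.39 RPKM to 7.48, 8.44 and 8.81. Both rises were free of overlap, by 0.90 (SE 0.139, adjusted p = 0.00019) and 2.31 (SE 0.141, adjusted p = 1.1e-08) on the log2 scale, and at day 7 the labelled level was 3.27-fold that of control (log2 1.71, SE 0.138, adjusted p = 2.92e-07). The ratio of Acacb to Acaca per length was 0.206 ± 0.016 in control and 0.287 ± 0.013 in labelled libraries at day 0. By day 7 it was 0.473 ± 0.041 in control and 1.07 ± 0.013 in labelled libraries (SD, n = 3 each), so that the minor form before induction stood beside the other form in labelled fat cells.

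Fasn, the synthase itself, passed no test of day or of the label at day 7. It was at 54.3, 52.2 and 57.9 RPKM in control at day 0 and at 43.8, 37.2 and 40.1 at day 7. The labelled libraries had 45.8, 25.5 and 25.1 RPKM at day 0 and 31.5, 38 and 42.8 at day 7. The control libraries at day 7 all lay under those at day 0, and the difference of −0.44 (SE 0.202) did not pass (adjusted p = 0.0887) but did so without labelled day 0 replicate 1 (adjusted p = 0.000527). In labelled cells the day difference was 0.22 (SE 0.202, adjusted p = 0.342) with that library and 0.57 (adjusted p = 0.000106) without it. The label at day 7 gave −0.11 (SE 0.202, adjusted p = 0.657), with overlapping libraries, 0.01 (adjusted p = 0.984) without labelled day 7 replicate 1, and 0.47 (adjusted p = 0.192) with the trend on transcript length removed. Per length, the ratio of Scd1 to Fasn was 0.841 ± 0.014 in control at day 0 and 4.15 ± 0.163 at day 7. In labelled libraries that ratio was 1.36 ± 0.227 at day 0 and 22.1 ± 4.15 at day 7 (SD, n = 3 each).

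Me1, which makes NADPH while turning malate into pyruvate, had the tightest replicates of the 10. It stood at 16.6, 16.6 and 17.2 RPKM in control at day 0, 18.4, 19.6 and 19.3 at day 7, 17.4, 16.5 and 17.6 in labelled cells at day 0, and 69.9, 69.3 and 69.2 at day 7. Only the labelled day 7 group was far from the others, and the control groups differed by 0.18 (SE 0.084, adjusted p = 0.0864), which passed without labelled day 0 replicate 1 (adjusted p = 0.0485). The rise in labelled cells was 2.02 (SE 0.086, adjusted p = 4.22e-10), and the labelled level at day 7 was 3.64-fold that of control (log2 1.86, SE 0.086, adjusted p = 2.43e-09). A second transcript of Me1 that begins at another start site held 95.8% as many counts as the one used, and one of Acly held 99.8%, so the counts do not tell these transcripts apart.

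Elovl6 went the other way. Its libraries held 14.5, 12.7 and 14.5 RPKM in control at day 0, 7.49, 6.64 and 6.41 in control at day 7, 15.8, 11.4 and 9.31 in labelled cells at day 0, and 2.10, 2.30 and 1.74 in labelled cells at day 7. The day 7 libraries lay under the day 0 libraries in both labels, and the labelled ones lay under control at day 7. The log2 difference by day was −1.02 in control (SE 0.173, adjusted p = 0.000389) and −2.57 in labelled cells (SE 0.186, adjusted p = 5.61e-08), and at day 7 it was 3.34-fold lower with the label (log2 −1.74, SE 0.182, adjusted p = 3.15e-06). It was the one member past the test as lower in labelled cells at day 7. These 3 calls were kept under each of the 21 alternatives run, with log2 differences between labels at day 7 of −1.88 to −1.37.

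Scd1 and Scd2 took a growing share of the pathway's transcripts. Scd1, the main desaturase of fat tissue, was at 44.8, 44.3 and 49.2 RPKM in control at day 0 and at 178, 161 and 162 at day 7. In labelled cells it was at 50.6, 39.3 and 35.8 RPKM at day 0 and at 833, 823 and 778 at day 7. The 4 groups formed 3 steps, with both day 0 groups together, control day 7 above them and labelled day 7 highest. The rises were 1.86 (SE 0.130, adjusted p = 2.02e-07) and 4.28 (SE 0.144, adjusted p = 6.26e-11) on the log2 scale, and the labelled level at day 7 was 4.86-fold that of control (log2 2.28, SE 0.132, adjusted p = 1.66e-08).

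Scd2, a desaturase that preadipocytes already express, was at 124, 122 and 138 RPKM in control at day 0 and at 190, 165.0 and 181 at day 7. Labelled libraries had 137, 124 and 112 RPKM at day 0 and 470.3, 506 and 508 at day 7. The control rise was small, at 0.48 (SE 0.109, adjusted p = 0.00292), and the labelled rise was 2.00 (SE 0.113, adjusted p = 5.41e-09), with a 2.77-fold higher level than control at day 7 (log2 1.47, SE 0.111, adjusted p = 1.65e-07). The ratio of Scd1 to Scd2 per length was 0.360 ± 0.0037 and 0.336 ± 0.029 in control and labelled libraries at day 0, 0.936 ± 0.043 in control at day 7 and 1.64 ± 0.121 in labelled libraries at day 7 (SD, n = 3 each). Together these genes made up 48.3% ± 1.21 of the members' summed RPKM in control at day 0 and 67.8% ± 1.10 at day 7. In labelled cells they made up 56.0% ± 5.08 at day 0 and 75.8% ± 1.35 at day 7.

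**Figure D3:**
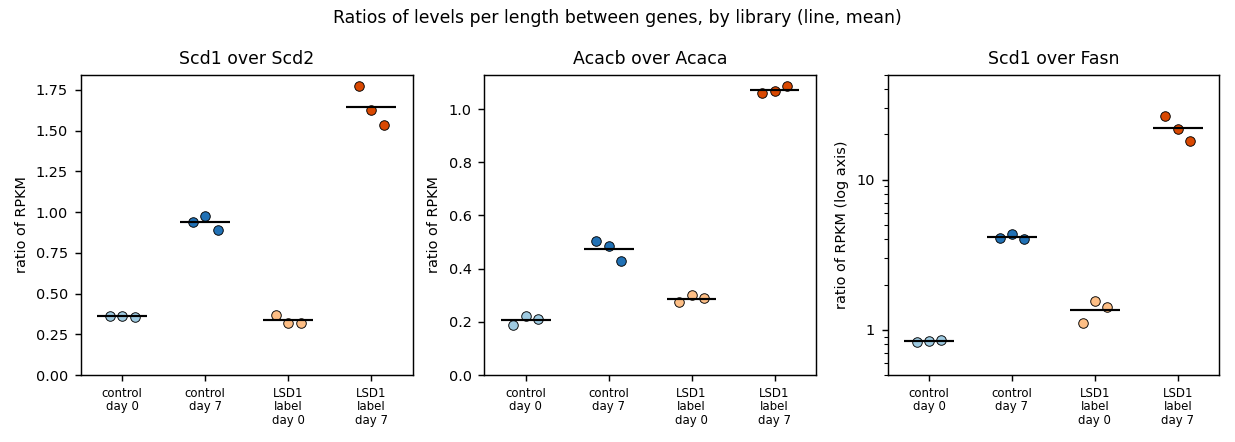
Ratios of RPKM in each library for Scd1 over Scd2, Acacb over Acaca (linear axes from 0) and Scd1 over Fasn (log axis), with a line at the mean of 3. The ratio of Scd1 to Scd2 is 0.360 and 0.936 in control at day 0 and day 7, and 0.336 and 1.64 in labelled libraries. That of Scd1 to Fasn is 0.841 and 4.15 in control at day 0 and day 7, and 1.36 and 22.1 in labelled libraries.

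Both genes lie in a cluster of 4 desaturase genes on chromosome 19 (mm10), with Scd3 at 44203288 to 44244016, Scd2 at 44293676 to 44306864, Scd4 at 44333326 to 44346743 and Scd1 at 44394450 to 44407709. Scd3 had 2 counts over the 3 control libraries and 3 over the labelled ones at day 0, and 130 and 2278 at day 7, which is 0.538 ± 0.376 and 11.6 ± 0.927 RPKM (SD, n = 3), a log2 difference of 4.41 with the label (SE 0.372, adjusted p = 4.49e-07). Scd4 stayed between 16 and 56 counts per group, and its differences did not pass. Of the 50-base stretches of Scd3, 4.88% also occur in Scd1 and 3.98% in Scd2, so a part of the Scd3 counts at day 7, where Scd1 had 222824, is uncertain.

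Thrsp was nearly silent before induction, with 1, 2 and 15 counts in control and 10, 1 and 5 in labelled libraries. At day 7 it was at 34.1, 31.6 and 43.1 RPKM in control and at 220.0, 200 and 236 in labelled libraries, the third highest level of the members there. The labelled libraries did not overlap with control at day 7 and were 6.02-fold higher (log2 2.59, SE 0.295, adjusted p = 6.71e-06). The rises by day were 7.36 (SE 0.456, adjusted p = 7.08e-08) and 10.19 (SE 0.475, adjusted p = 1e-09) on the log2 scale, and their size rests on 18 and 16 counts at day 0. The control rise was 9.26 without control day 0 replicate 3, and the labelled rise was 11.05 without labelled day 0 replicate 1. The interaction of 2.83 (SE 0.901, adjusted p = 0.0186) was 0.92 (adjusted p = 0.569) without control day 0 replicate 3, the library with 15 counts, so it was not past the threshold without that library.

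Before induction the labelled libraries differed from control in 2 of 10 members, both lower, where 12.8% of all genes were higher and 13.0% lower, 25.8% in all (edgeR). No member was higher by edgeR, with 0 at an unadjusted p under 0.05, where 19.0% of all genes were, and 0 by DESeq2. Acacb alone had its 3 labelled libraries above control and Fasn alone below, where 18.0% and 19.6% of all genes were so separated. Fasn stood at −0.77 on the log2 scale (SE 0.203, adjusted p = 0.0146) with no overlap, and Acly at −0.58 (SE 0.200, adjusted p = 0.0496) with overlap. Without labelled replicate 1, 5 members were lower and 0 higher, where 26.0% of all genes were lower and 22.6% higher: Acly at −0.97 (adjusted p = 2e-08), Fasn at −1.12 (adjusted p = 8.5e-08), Acaca at −0.38 (adjusted p = 0.00735), Elovl6 at −0.42 (adjusted p = 0.00647) and Scd1 at −0.30 (adjusted p = 0.0125). The Fasn call was lost without control replicate 3 (adjusted p = 0.0526) or labelled replicate 2 or 3 (adjusted p = 0.0513 and 0.0586), and with the trend on transcript length removed (−0.53, adjusted p = 0.213). The Acly call was lost when any library but labelled replicate 1 was left out, with adjusted p values of 0.0641 to 0.17. Without labelled replicate 1, Acly and Fasn also passed the interaction, at 0.90 (adjusted p = 8.81e-07) and 1.01 (adjusted p = 5e-06), so that 9 members were then higher and 1 lower, where 31.0% and 33.7% of all genes were. Of the 8 preadipocyte and fibroblast markers, 7 were lower in the labelled libraries at day 0 and 1, Pdgfra, was higher (0.51, SE 0.092, adjusted p = 0.00168), and their part in these values was not tested.

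Labelled replicate 1 at day 0 was the highest of its group for 9 of 10 members, and for 49.5% of all genes tested. Its log2 CPM exceeded the mean of the other 2 libraries by a median of 0.57 over the members and 0.08 over all genes. The difference was larger in the cholesterol branch of the SREBP targets, genes that SREBP-2 switches on when sterols run low: replicate 1 was the highest of its group in 20 of 20 tested genes, by a median of 1.43. Between labels at day 0 that list had 0 genes higher and 0 lower (0 and 1 at an unadjusted p under 0.05, and 0 and 0 by DESeq2), and 0 higher and 19 lower without replicate 1. Of all genes, 12.8% and 13.0% were higher and lower there, and 22.6% and 26.0% without replicate 1. What set the library apart was not tested.

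The regulators of lipogenesis were a list of 27 tested genes. By day, 16 rose and 4 fell in control and 22 rose and 1 fell in labelled cells. At day 7 the label had 21 higher and 2 lower. Of all genes, 23.7% and 24.6% were higher and lower by day in control, 32.6% and 37.2% in labelled cells, and 30.2% and 33.4% with the label at day 7. The list's median log2 differences were 0.60, 1.01 and 0.98, against −0.01, −0.07 and −0.05 over all genes. Without labelled day 0 replicate 1, 16 regulators were higher and 7 lower by day in control, where 31.0% and 32.1% of all genes were. Nr1h3, the liver X receptor α, rose by 4.28 (SE 0.240) and 5.97 (SE 0.252) and was higher with the label at day 7 by 1.86 (SE 0.203, adjusted p = 4.57e-06). Srebf1, which drives Fasn and Acly in many tissues, rose by 0.77 (SE 0.147) and 1.73 (SE 0.151), was lower with the label at day 0 (−0.75, SE 0.148, adjusted p = 0.00296), and stood at 0.22 (SE 0.146, adjusted p = 0.212) at day 7. Srebf2, which drives cholesterol synthesis, fell by 1.63 (SE 0.215) and 1.04 (SE 0.212), and stood at 0.39 (SE 0.211, adjusted p = 0.123) with the label at day 7.

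Mid1ip1, a relative of Thrsp that promotes polymerisation of acetyl-CoA carboxylase, fell in control by 1.03 (SE 0.112) and was higher with the label at day 7 by 1.32 (SE 0.113, adjusted p = 4.87e-07). Its day difference in labelled cells was −0.06 (SE 0.110, adjusted p = 0.618). Mlxipl, the gene of ChREBP, rose in labelled cells (7.00, SE 1.53, adjusted p = 0.00178), but only from 0 counts per group at day 0 to 39 at day 7. Its difference with the label at day 7 of 1.72 (SE 0.849) did not pass (adjusted p = 0.0997). The fat cell factors Pparg and Cebpa were higher with the label at day 7 by 1.36 (SE 0.134) and 1.18 (SE 0.158). Mlycd, whose enzyme breaks malonyl-CoA down, was higher by 2.51 (SE 0.151) and Hlcs, which attaches biotin to the carboxylases, lower (log2 −1.07, SE 0.145). Lpin1, whose product makes diacylglycerol for triglyceride and also acts in the nucleus, rose by 2.43 (SE 0.177) in control and 5.08 (SE 0.198) in labelled cells. Prkaa1, a catalytic subunit of the AMP-activated kinase that phosphorylates and inhibits the carboxylases, was at −0.41 with the label at day 7 (SE 0.115, adjusted p = 0.00733), or 0.02 with the trend on GC content removed. Other subunit genes of that kinase were higher there: Prkab2 by 2.25 (SE 0.166), Prkaa2 by 1.68 (SE 0.319), Prkag1 by 0.65 (SE 0.172) and Prkag2 by 0.60 (SE 0.121). Prkab1 did not pass (−0.02, SE 0.098, adjusted p = 0.894).

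Of 20 tested genes of substrate and NADPH supply, 13 rose and 2 fell in control, 18 rose and 2 fell in labelled cells, and 15 were higher and 2 lower with the label at day 7, with medians of 0.73, 2.02 and 1.53. Beside these, 23.7%, 32.6% and 30.2% of all genes were higher and 24.6%, 37.2% and 33.4% lower. Pdhb, a subunit of pyruvate dehydrogenase, was higher with the label at day 7 by 2.26 (SE 0.097, adjusted p = 1.41e-09), citrate synthase, Cs, by 1.84 (SE 0.111) and the insulin-responsive glucose carrier Slc2a4 by 3.09 (SE 0.161). Pcx, pyruvate carboxylase, which supplies oxaloacetate for citrate, rose by 3.32 (SE 0.164) in control and 4.71 (SE 0.175) in labelled cells. The other malic enzymes did not share the rise of Me1. Me3 was lower (log2 −1.31, SE 0.362, adjusted p = 0.00672), but near the floor, with 39 counts over the control and 13 over the labelled libraries at day 7. Me2 stood at −0.40 (SE 0.090, adjusted p = 0.00168), or 0.05 with the trend on transcript length removed.

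Of 15 other elongation and desaturation genes tested, 4 rose and 6 fell in control, 6 rose and 4 fell in labelled cells, and 10 were higher and 3 lower with the label at day 7, with medians of −0.02, 0.30 and 0.88. The shares of all genes higher and lower were 23.7% and 24.6%, 32.6% and 37.2%, and 30.2% and 33.4%. Hacd2, a dehydratase of the elongation cycle, rose by 1.76 (SE 0.099) in control and 3.65 (SE 0.106) in labelled cells, while Fads2, the delta-6 desaturase of polyunsaturated fatty acids, was lower at day 7 in both (−2.10, SE 0.143, and −1.11, SE 0.139). Hsd17b12, the ketoreductase of the elongation cycle, was higher by 1.18 (SE 0.102) at day 7 and the desaturase Fads3 by 2.28 (SE 0.163). The dehydratase gene Hacd4 and the elongase gene Elovl4 were lower, with log2 values of −3.93 (SE 0.247) and −2.43 (SE 0.343). Mitochondrial fatty acid synthesis, a separate system that makes the octanoate from which lipoate is built, had 5 of 9 genes higher in control, 9 of 9 in labelled cells and 8 of 9 with the label at day 7, with none lower by edgeR, by DESeq2 or at an unadjusted p under 0.05. Without labelled day 0 replicate 1 the counts were 5 higher and 1 lower in control, 9 and 0 in labelled cells and 9 and 0 with the label at day 7. The shares of all genes were then 31.0% and 32.1%, 36.5% and 39.6%, and 35.4% and 38.3%. Lias, the lipoate synthase, was higher by 1.14 (SE 0.096) and Ndufab1, the mitochondrial acyl carrier protein, by 1.66 (SE 0.176) at day 7.

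By day in control cells, 4 of the 10 members were higher and 2 lower (median 0.33). Of 20 tested genes of the cholesterol branch, 1 was higher there and 9 were lower (median −0.63). In labelled cells 6 of these 20 rose and 3 fell (median 0.00), and with the label at day 7 10 were higher and 2 lower (median 0.71). The shares of all genes higher and lower were 23.7% and 24.6%, 32.6% and 37.2%, and 30.2% and 33.4%. The share of the list that rose in labelled cells is thus near that of all genes. Without labelled day 0 replicate 1 the list counts were 2 and 13, 14 and 3, and 15 and 3. The shares of all genes were then 31.0% and 32.1%, 36.5% and 39.6%, and 35.4% and 38.3%. Lss, lanosterol synthase, was higher with the label at day 7 by 1.84 (SE 0.244, adjusted p = 2.53e-05), and Stard4, which carries sterols, was lower (−1.22, SE 0.285, adjusted p = 0.00228). Before induction the label had 6 regulators higher and 4 lower, 2 and 2 genes of substrate supply, 2 and 2 of elongation and desaturation, and 1 and 0 of mitochondrial synthesis (none lower at an unadjusted p under 0.05 or by DESeq2). Without labelled replicate 1 the counts were 6 and 8, 2 and 6, 3 and 5 of 16 tested, and 1 and 2. Of all genes, 12.8% and 13.0% were higher and lower before induction, and 22.6% and 26.0% without that library. Cebpb, an early adipogenic factor, was higher (1.62, SE 0.219, adjusted p = 0.000217), and Cebpa, a later one, lower (−1.62, SE 0.170, adjusted p = 3.39e-05).

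**Figure D4:**
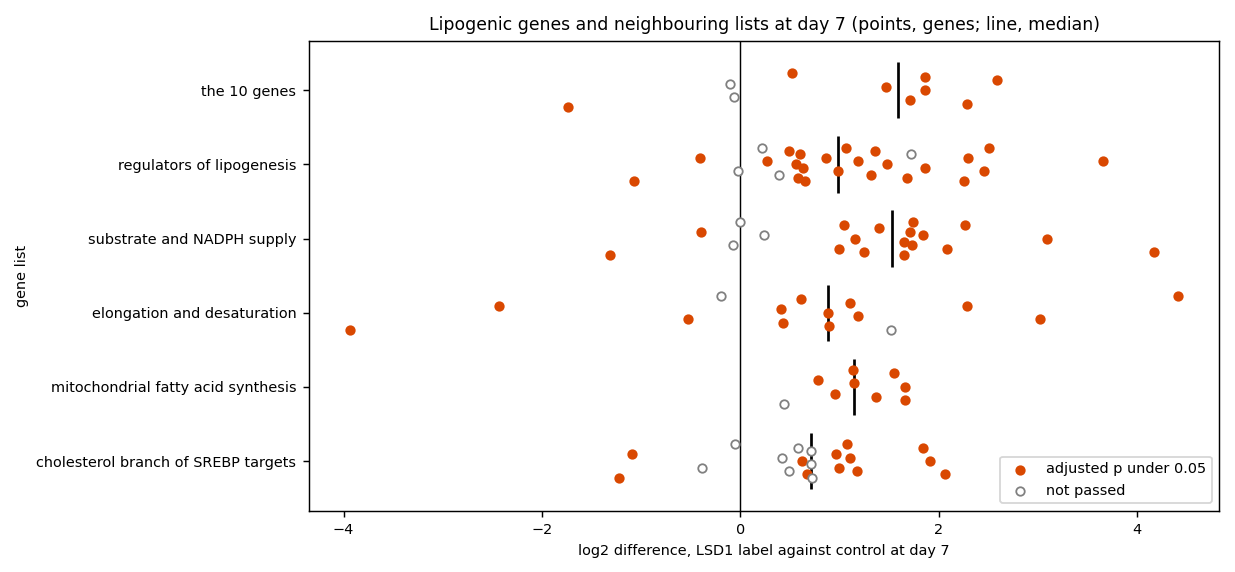
Log2 differences between labelled and control libraries at day 7 for the 10 genes and the 5 lists, 1 point per tested gene, filled where the adjusted p was under 0.05, with a line at each median. The medians are 1.59 for the 10 genes and 0.98, 1.53, 0.88, 1.14 and 0.71 for the lists from top to bottom.

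The genes whose pattern over the 12 libraries was most like that of a member were named by the smallest root mean square difference of centred log2 CPM, among 9524 genes of at least 10 CPM. For Fasn these were Anxa6 (0.094), Tubb2a (0.12) and Vmac (0.129). For Scd2 they were Ccni (0.103), Atg13 (0.111) and Atp5a1 (0.123), and for Elovl6 they were Elk3 (0.171), Plec (0.173) and Thbs2 (0.175). No other member was among them. Elk3 for example was at 26.5 ± 0.815 RPKM in control at day 0 and 13.5 ± 0.852 at day 7. In labelled cells Elk3 was at 20.9 ± 3.88 RPKM at day 0 and 4.14 ± 0.298 at day 7 (SD, n = 3 each).

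On the mm10 assembly, by the RefSeq transcript used, Acly lies at chr11:100476352-100528000, Acaca at chr11:84195438-84401651 and Fasn at chr11:120805958-120824547. Acacb lies at chr5:114165518-114250758, Elovl6 at chr3:129532386-129638495 and Me1 at chr9:86581363-86695914, and Acss2 at chr2:155518043-155562743 and Thrsp at chr7:97412933-97417550. LSD1 peaks lay at the start sites of more members in the larger lists. The lists held 3024 peaks in control at day 0, 8303 in control at day 7, 13997 in labelled cells at day 0 and 27221 at day 7, and the read depth behind each is not stated in the sources used here, so no test between them was made. A peak lay within 1 kb of the start site of 2 of 10 members in control at day 0 (Fasn and Acss2), where 12.5% of 26179 genes had one. The counts were 5 of 10 in control at day 7 against 32.5%, 6 of 10 in labelled cells at day 0 against 39.5%, and 8 of 10 in labelled cells at day 7 against 45.0%. The 26179 genes include genes below the filter on low counts, which all 10 members passed. These shares are therefore not matched for expression. Acaca and Acacb had none within 1 kb of their annotated RefSeq start sites in any of the 4 lists. Whether these cells start either transcript elsewhere was not tested. For Acaca the nearest lay 2492 bases from the start site, in labelled cells at day 7, with a score of 58.6. In the other lists the nearest Acaca peak lay 14515 to 14756 bases before that start site. For Acacb the nearest lay 7080 bases away, in control at day 7, and 7393 to 9728 bases away in the other lists. Nrf1 had no peak within 1 kb of any member at either day, where 6.59% and 7.09% of genes had one.

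The scores are the authors' own and are read only within a list. In labelled cells at day 7 the peak over the Scd2 start scored 3088, above or equal to 98.8% of that list, and ran over 4992 bases, chr19:44293433-44298424, from 243 bases before the start across 3 of the 6 exons. The Scd1 peak, chr19:44404284-44408729, scored 2484 (98.3%) over 4446 bases and 2 of 6 exons, and the Fasn peak, chr11:120822510-120825505, scored 2865 (98.7%) over 2996 bases and 2 of 43 exons. Acly had 1455 (94.6%), while the peaks at Thrsp and Acss2 scored 208 (57.4%) and 132 (46.6%). Me1 had 526 (75.9%), and Elovl6 had 57.3 (10.6%) over its start and 649 (80.5%) at a peak 633 bases from it. Any relation of these scores to the RNA levels was not tested. In control at day 7 the Fasn peak scored 365 (92.9%) and that of Scd1 163 (64.6%).

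**Figure D5:**
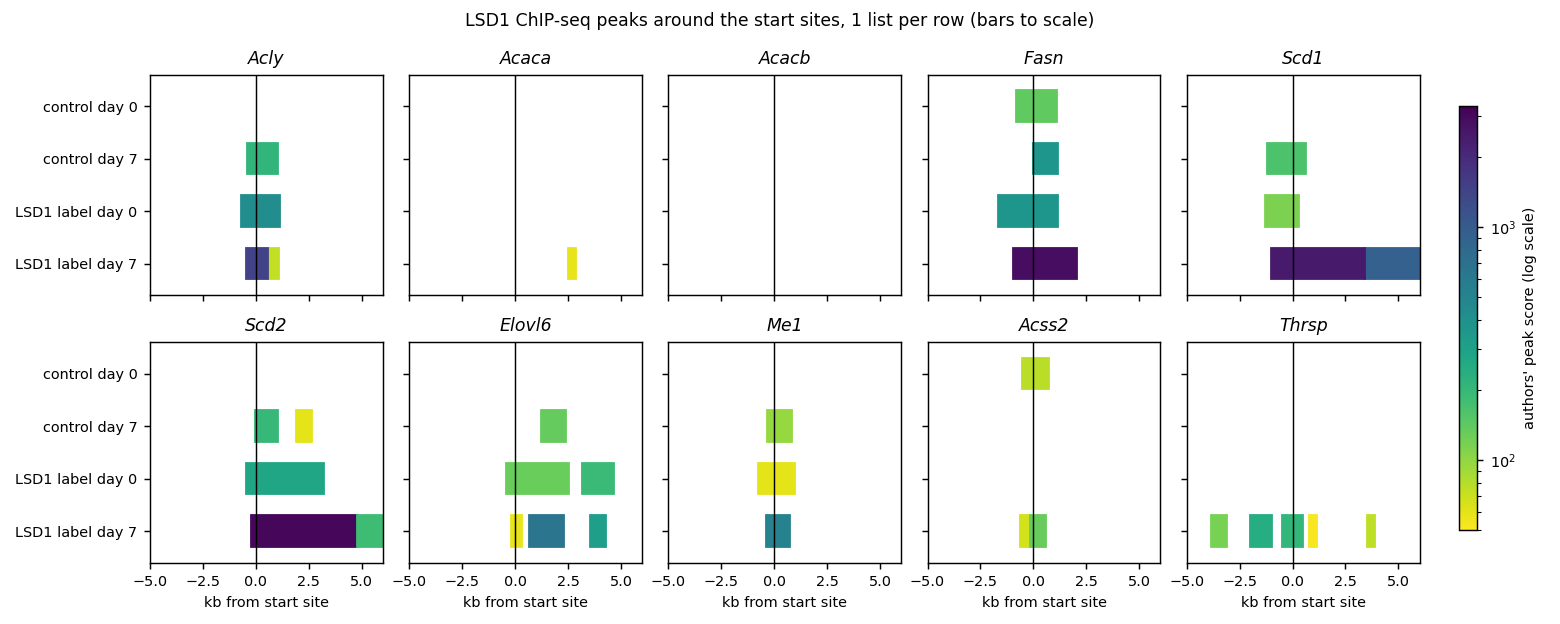
LSD1 peaks from 5 kb before to 6 kb after the start site of each gene, drawn to scale with transcription to the right, 1 row per list, coloured by the authors' score on a log scale. Fasn has a peak at its start in all 4 lists, Acaca and Acacb have none within 1 kb, and the bars at Scd1 and Scd2 are longest in labelled cells at day 7.

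Promoter sequences are shown for 3 members whose peaks and levels differed: Fasn, with an LSD1 peak in all 4 lists, Thrsp, with one only in labelled cells at day 7, and Acss2, with one in control at day 0 and labelled cells at day 7. Each is the 250 bases before the RefSeq start site (GRCm38.p6, the mm10 assembly), 5′ to 3′ on the gene's strand, with capitals at CCAAT or its complement ATTGG and at the GC box GGGCGG or its complement CCGCCC. The Fasn and Thrsp stretches lie inside the labelled day 7 peaks that cover their start sites.

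Fasn, chr11:120824548-120824797, minus strand: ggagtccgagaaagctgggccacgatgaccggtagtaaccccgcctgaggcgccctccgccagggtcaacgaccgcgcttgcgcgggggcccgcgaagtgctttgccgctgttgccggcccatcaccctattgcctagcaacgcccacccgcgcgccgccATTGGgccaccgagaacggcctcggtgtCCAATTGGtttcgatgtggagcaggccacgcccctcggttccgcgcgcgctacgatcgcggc

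Thrsp, chr7:97417551-97417800, minus strand: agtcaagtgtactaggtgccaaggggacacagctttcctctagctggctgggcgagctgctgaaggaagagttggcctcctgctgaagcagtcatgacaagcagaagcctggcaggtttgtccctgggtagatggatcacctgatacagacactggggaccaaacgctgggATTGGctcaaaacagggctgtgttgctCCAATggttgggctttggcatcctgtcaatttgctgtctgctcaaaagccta

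Acss2, chr2:155517793-155518042, plus strand: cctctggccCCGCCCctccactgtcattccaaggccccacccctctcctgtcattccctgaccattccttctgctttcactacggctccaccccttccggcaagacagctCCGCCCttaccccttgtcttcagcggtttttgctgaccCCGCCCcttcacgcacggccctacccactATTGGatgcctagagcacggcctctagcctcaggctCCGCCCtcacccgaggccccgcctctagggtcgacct

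The Fasn window held 3 CCAAT matches, at −90 to −86 and at −62 to −58 and −59 to −55, the last pair overlapping on opposite strands. The Thrsp window held 2, at −79 to −75 and −52 to −48, and the Acss2 window held 1 at −73 to −69 beside 4 GC boxes, counting the base before the start as −1. Over the full windows of 300 bases, 250 before and 50 after the start, CCAAT was found on either strand in 6 of 9 windows of the 8 members in the table (Acacb, Acly, Acss2, Fasn, Me1 and Thrsp) and in 37.4% of 32851 windows. The GC box was found in 3 of 9 against 35.7%, TATAAA in 1 of 9 (Acacb) against 13.6%, and CACGTG, the E-box core, in 0 of 9 against 7.15%. The sterol element core TCACNCCAC was in 0 of 9 against 1.24%. Such matches describe the letters in these windows only.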

How the data were processed

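RNA was measured in 12 libraries and LSD1 or Nrf1 binding in 6 ChIP-seq samples of the 24 in the series; 6 input samples were not used here. The authors deposited raw read counts, 1 value per RefSeq transcript, and peak lists with a peak score whose lowest value was 50.0 and whose scale is not stated. The submitters' processing notes name mm10 as the build, list TopHat2 (version 2), HOMER, edgeR and DESeq 1.8.3 on the RNA samples and Bowtie2 and MACS 1.41 on the ChIP samples, and give none of them a role. The strand setting of the counting is not given in the sources used here.

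From the 30521 transcripts (1200 unnamed, with 0.896% of counts) 1 per gene was kept, the one highest in mean count (24346 genes). The 4 groups were fitted in edgeR 4.0.16 (R 4.3.3) with filterByExpr, TMM scaling and robust quasi-likelihood dispersions with 1 mean per group; tests were two-sided, with Benjamini-Hochberg adjustment over 13356 genes and a threshold of 0.05. The procedure was also run on simulated counts with known differences. There far fewer genes changed than here and no library stood apart, so that run does not cover these features of the data. CPM and RPKM used TMM library sizes; the log2 CPM used for correlations and for likeness had a prior count of 2. Reads carry no molecular identifiers, so counting precision covers counting error only. Samples were grouped by their genotype label and day, and the title and genotype label of the Nrf1 sample at day 7 disagree, so it was grouped by day only. Peaks were matched to RefSeq start sites of GRCm38.p6. Alternatives were 2 other scalings, DESeq2 1.42.0, no filter, summed transcripts, a replicate block, the compared groups alone and each library left out. Trends on GC content and transcript length, and the list counts without labelled day 0 replicate 1, were added after seeing the data. The members and the lists were chosen with earlier results of these data known. Named list genes were up to 3 per direction by smallest adjusted p, and Srebf1, Srebf2, Mlxipl, Nr1h3, Mid1ip1, Scd3, Scd4, Pparg and Cebpa always.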

Additional observations from a re-analysis of the deposited data

Results flagged for a closer look

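For 8 of the 10 genes the change from day 0 to day 7 differed between the labels by the test of the difference itself (edgeR interaction, labelled minus control, log2 scale). By the same test 23.9% of all genes tested were called higher and 28.1% lower, 51.9% in all. The difference was 0.70 (SE 0.208, adjusted p = 0.0129) for Acaca, 1.42 (SE 0.194, adjusted p = 6.14e-05) for Acacb, 2.42 (SE 0.181, adjusted p = 3.93e-07) for Scd1 and 1.51 (SE 0.155, adjusted p = 5.29e-06) for Scd2. It was 1.83 (SE 0.119, adjusted p = 1.32e-07) for Me1, 1.45 (SE 0.431, adjusted p = 0.0131) for Acss2, 2.83 (SE 0.901, adjusted p = 0.0186) for Thrsp and −1.55 (SE 0.248, adjusted p = 0.000211) for Elovl6. For Acly, at 0.52, and Fasn, at 0.66, it did not pass (adjusted p = 0.144 and 0.0683). The value for Thrsp was 0.92 (adjusted p = 0.569) without control day 0 replicate 3.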

How the results depend on the processing

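Over 21 alternatives, 975 values of single members kept their direction and side of the threshold, 29 lost a call, 25 gained one and 10 reversed. With labelled day 0 replicate 1 left out, control had 4 members lower by day, as it had with only the groups compared (4). Leave-one-out counts of members lower ran from 2 to 4 in control, from 1 to 2 in labelled cells and from 0 to 5 between labels at day 0, where all genes called ran from 2172 to 6565 against 3449 (1862 with only the groups compared). Labelled cells had 2 members lower by day with upper quartile scaling and with no filter, Acly being added. At day 0, 1 member was lower with upper quartile scaling, with summed transcripts and with the replicate block, and 0 with only the groups compared and with the length trend removed; 1 member was higher with the GC trend removed. With scores of 100 or more, 1 member had a peak in the control day 0 list.

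Values that changed sign at day 0 were Scd2 at 0.01 and Thrsp at 1.67 (without control day 0 replicate 3), Acss2 at −0.25 (without labelled replicate 1; up to 0.66 over libraries left out), Thrsp at 0.28 (without replicate 2; down to −1.10), Scd2 at 0.03 (without replicate 3), and Acaca at 0.01 and Scd2 at 0.05 (length trend). At day 7 they were Fasn at 0.01 (without labelled day 7 replicate 1; down to −0.21), Acly at 0.20, Fasn at 0.47 and Me2 at 0.05 (length trend), and Prkaa1 at 0.02 (GC trend). Mid1ip1 by day in labelled cells was 0.02, 0.01 and 0.08 (without labelled day 0 replicate 3, without labelled day 7 replicate 1, and with the GC trend removed; down to −0.14), and Scd4 by day in control was −0.12 without control day 7 replicate 2 and up to 1.26 over libraries left out. For each of these the cause was not tested.

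Upper quartile scaling moved the median of all genes to −0.224 from −0.067 in labelled cells, to −0.193 from −0.052 at day 7 and to −0.236 from −0.056 for the interaction, with which Acaca's interaction was 0.52 (adjusted p = 0.0559) and its rise in labelled cells 0.25 (adjusted p = 0.159). Removing the GC trend, which in control had a Spearman correlation of −0.308 with the differences across genes, moved Fasn in labelled cells to 0.48 (adjusted p = 0.00699). Replicate numbers did not pair the libraries: 1 of 18 same-number pairs of deviations correlated above 0.1, and in 8 of 36 comparisons of a library with another group the best match had its own number. With the replicate block the all-gene calls were 6031, 9051, 2964, 8161 and 6541 against 6447, 9325, 3449, 8491 and 6933, and Acly at day 0 was at −0.62 (adjusted p = 0.0507), the one member call changed. Depth limits the day 0 level of Thrsp, at 16 and 18 counts per group.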
